A study of Homo sapiens with 3 samples.

Results

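The SLC25 genes encode the mitochondrial carriers, and their RNA levels were read from RNA-seq of cells labelled HepG2, a long-established line from a human liver tumor. Members were chosen by symbol, as every gene row on a main chromosome whose name is SLC25A followed by a number alone. This gave 49 rows and 48 genes among the 39320 rows on main chromosomes, because SLC25A6 lies in the pseudoautosomal region and has a row on X and on Y. The Y row was listed at 0 in every library and was not used. UCP1, UCP2, UCP3, MTCH1 and MTCH2 belong to the same protein family under other symbols and were listed apart. The study sequenced polyA RNA of 3 libraries, all labelled as wild-type HepG2 with no treatment named and numbered as replicates 1, 2 and 3, so there is 1 condition and no control. Nothing in the labels says whether the 3 came from separate cultures, and the spread between them may be technical. HepG2 was derived from 1 tumor. The name of the line is the label's, and the hepatocyte markers that should bear it out were at or near 0 in all 3 libraries, so the identity of the cells is in doubt and the results are those of the libraries labelled HepG2.

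Mitochondrial carriers are small membrane proteins, most of them in the inner mitochondrial membrane, that exchange metabolites between the matrix and the cytosol. They are built from a repeated domain of paired membrane helices and are made from nuclear genes, translated in the cytosol and inserted by the TIM22 import machinery. Their substrates include ADP and ATP, phosphate, citrate and other organic acids, amino acids, nucleotides, cofactors, iron and fatty acids bound to carnitine. In the liver they link mitochondria to urea synthesis, gluconeogenesis, fatty acid synthesis and fatty acid oxidation.

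Several carriers are close copies of each other, so their coding regions were compared before their levels. The transcripts were the MANE transcripts of GENCODE v44 on GRCh38, and all 48 carriers had one. The first 90 coding bases of the ADP/ATP carriers are shown because these genes give the highest levels. They are on chromosome X for SLC25A5 and SLC25A6 and on chromosome 4 for SLC25A4, positions count from 1 at the A of the start codon, and capitals mark bases that differ from SLC25A5.
SLC25A5: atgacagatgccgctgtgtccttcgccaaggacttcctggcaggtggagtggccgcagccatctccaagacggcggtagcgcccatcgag
SLC25A6: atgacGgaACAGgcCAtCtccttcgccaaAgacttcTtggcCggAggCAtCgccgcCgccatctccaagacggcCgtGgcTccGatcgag
SLC25A4: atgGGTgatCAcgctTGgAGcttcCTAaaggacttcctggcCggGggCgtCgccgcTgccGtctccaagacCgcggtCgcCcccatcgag

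In this stretch, SLC25A6 differed from SLC25A5 at 20 bases and SLC25A4 at 21. Over the whole coding region of 894 bases, SLC25A5 was 78.7% identical to SLC25A6 and 77.2% identical to SLC25A4. The longest run of bases shared by SLC25A5 and SLC25A6 was 29, against reads of 150 bases. A shared run of 150 bases was found in 1 pair among all 48 carriers, SLC25A51 and SLC25A52, whose coding regions were 97.6% identical and shared a run of 169 bases. They are shown at coding positions 304 to 393, a window in which they differed at 6 of their 21 differing bases, with capitals where SLC25A52 (chromosome 18) differs from SLC25A51 (chromosome 9).
SLC25A51: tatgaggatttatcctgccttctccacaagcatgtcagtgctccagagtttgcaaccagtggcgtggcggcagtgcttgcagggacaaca
SLC25A52: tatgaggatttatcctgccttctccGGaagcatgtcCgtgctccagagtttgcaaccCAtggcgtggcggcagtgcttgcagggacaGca

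The coding regions share a size. The proteins that they encode ran from 274 to 678 amino acids, with a median of 314, and 36 of 48 were between 280 and 340. SLC25A12 and SLC25A13 were the longest, at 678 and 675 amino acids in 18 coding exons each. SLC25A2, SLC25A51, SLC25A52 and SLC25A53 each had a coding region in 1 exon, and all 4 were below 10 TPM in every library. At least 10 TPM in every library was reached by 34 of the 48 carriers and by 40.4% of protein-coding rows. A link between exon number and level was not tested, and SLC25A51 and SLC25A52 are near copies of each other. GENCODE v44 names 44 pseudogenes after SLC25A genes, which were not compared by sequence. They include 9 of SLC25A5, 6 of SLC25A6 and 3 of SLC25A3, and the deposited tables have rows for SLC25A3P1 and SLC25A51P1 alone, both listed at 0.

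The levels are given as TPM, a transcript abundance that is scaled for gene length and to the same total in every library, so that genes can be compared within a library. The tables hold no read counts, so depth is unknown and no counting error can be given. Of the 48 carriers, 39 had at least 1 TPM in all 3 libraries, or 81.3%. Over all 39320 rows the share was 33.8%, and over the 18743 protein-coding rows it was 59.5%. At least 10 TPM in all 3 libraries was reached by 34 carriers, or 70.8%, against 20.7% of all rows and 40.4% of protein-coding rows. The median level of the 48 carriers was 20.9, 20.1 and 20.3 TPM in replicates 1, 2 and 3, a mean of 20.5 ± 0.438 TPM (SD, n = 3). The median over protein-coding rows was 4.97 ± 0.216 TPM (SD, n = 3). With genes averaging under 1 TPM left out, the medians were 27.2 ± 2.10 TPM for carriers and 19.5 ± 0.635 TPM for protein-coding rows (SD, n = 3).

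**Figure D1:**
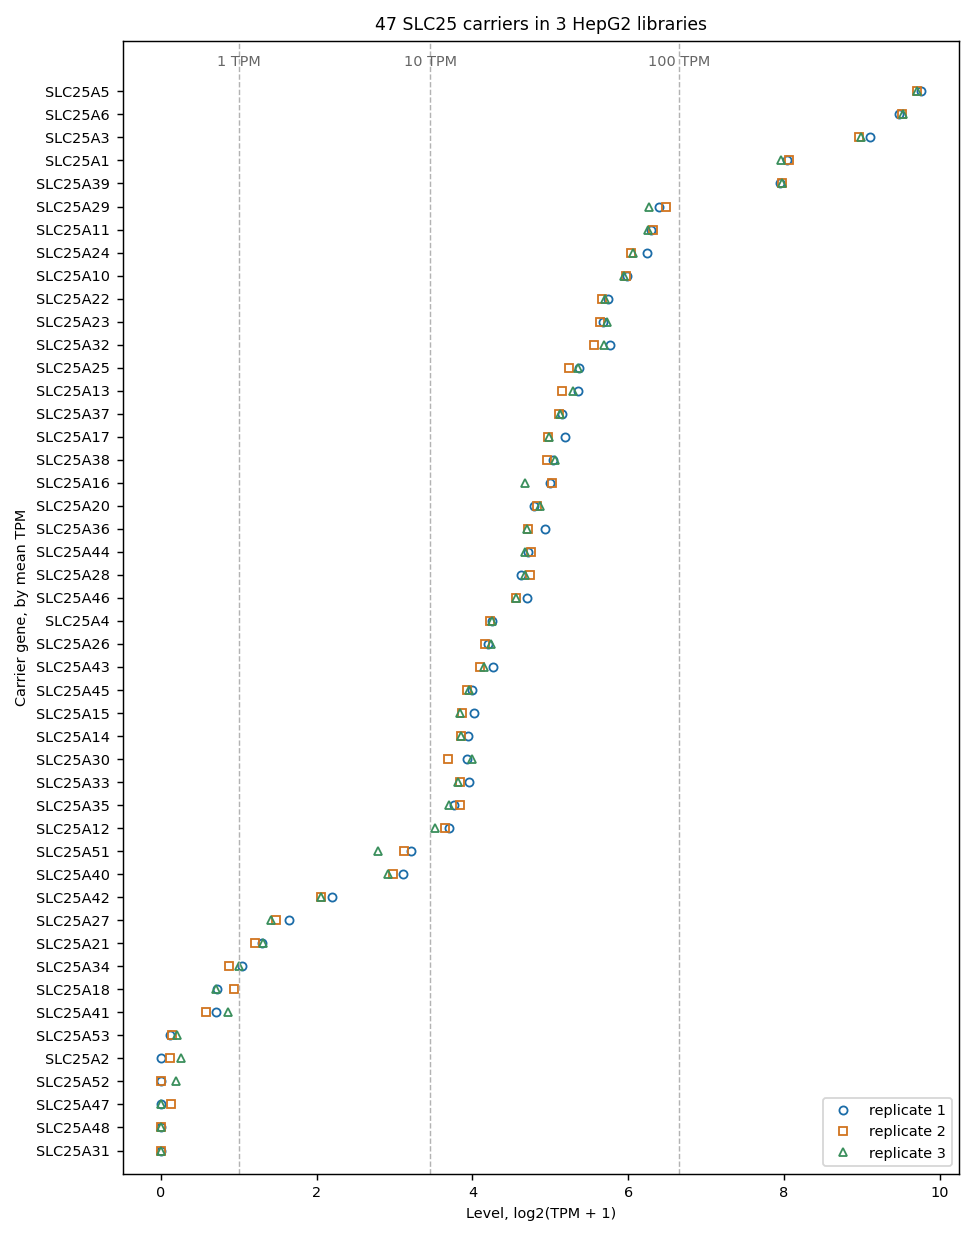
Level of 47 carriers on the log2(TPM + 1) scale, with a symbol for each of the 3 libraries and dashed lines at 1, 10 and 100 TPM, ordered by mean TPM. The symbols of a gene lie close together, and 5 carriers sit above 100 TPM while 8 lie below 1 TPM in every library.

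The carriers together took 3567 ± 64.4 TPM (SD, n = 3), or 0.357% of all TPM. SLC25A5, SLC25A6, SLC25A3, SLC25A1 and SLC25A39 made up 72.8% ± 0.302 of this sum (SD, n = 3), and SLC25A5 and SLC25A6 alone made up 44% ± 0.603 (SD, n = 3). A bulk library averages over its cells, so a change in the number of cells that express a gene and in the RNA per cell cannot be told apart.

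Carriers that serve ATP production led the family. The 4 ADP/ATP carriers, which bring ADP into the matrix in exchange for ATP, summed to 1596, 1583 and 1585 TPM, or 44.5% of all carrier TPM. SLC25A5, the isoform known from proliferating cells, had 868, 836 and 833 TPM in replicates 1, 2 and 3, and its mean of 846 ± 19.2 TPM (SD, n = 3) exceeded that of 99.0% of the 13753 genes averaging 1 TPM or more. Its row spans 2953 bp on the plus strand of chromosome X, from 119468444 to 119471396 in GRCh38. SLC25A6, a broadly expressed isoform, had 710.2, 729 and 734 TPM. Every value of SLC25A5 was above every value of SLC25A6, by 1.17 ± 0.0471 times within a library (SD, n = 3). SLC25A4, the isoform of heart and skeletal muscle, had 18.0, 17.7 and 18.1 TPM, and SLC25A5 was 47.1 ± 1.10 times as high (SD, n = 3). SLC25A31, the isoform of the testis, was listed at 0 in all 3 libraries.

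SLC25A3, the phosphate carrier, supplies the other substrate of ATP synthase. It had 551, 499 and 507 TPM, a mean of 519 ± 28.1 TPM (SD, n = 3), with replicate 1 above the others. ATP synthase itself, with 15 nuclear subunit genes listed, had at least 10 TPM for all 15 in every library and a median of 213 ± 11.0 TPM (SD, n = 3). Its subunits ran from ATP5PF at 96.5 ± 3.22 TPM to the catalytic subunit ATP5F1B at 1496 ± 44.4 TPM (SD, n = 3). The summed TPM of the ADP/ATP carriers and the TPM of ATP5F1B were 1596 and 1547 in replicate 1. They were 1583 and 1476 in replicate 2, and 1585 and 1466 in replicate 3. This sets a sum of 4 genes beside the highest of the 15 subunits. All 15 together summed to 4767, 4873 and 4937 TPM in replicates 1, 2 and 3.

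**Figure D2:**
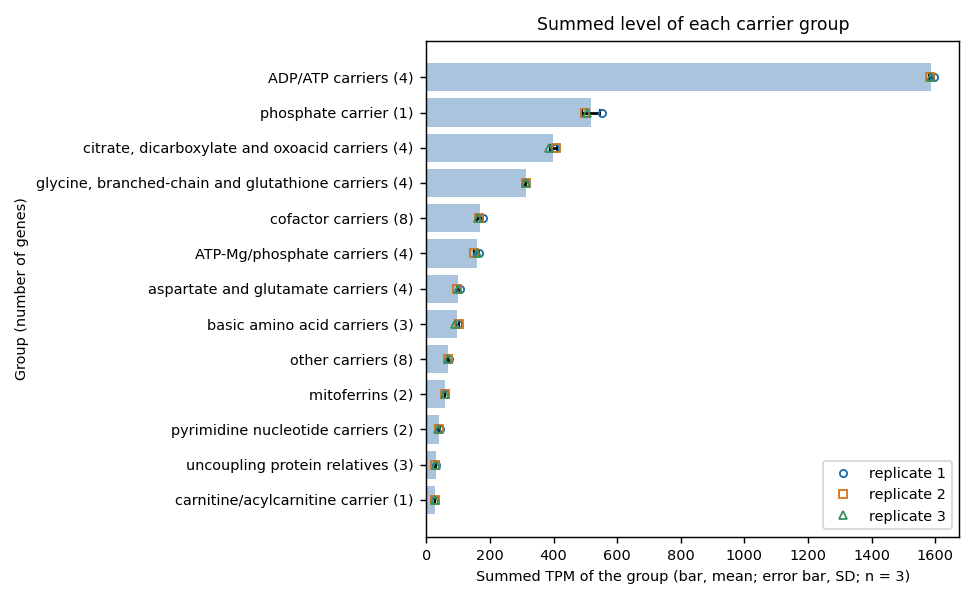
Summed TPM of each carrier group, as the mean of 3 libraries (bars from 0), the SD (error bars) and the value in each library (symbols), with the number of genes in parentheses. The ADP/ATP carriers reach 1588 TPM, the phosphate carrier 519 TPM and the remaining 11 groups at most 399 TPM each.

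The ATP-Mg/phosphate carriers exchange ATP bound to magnesium for phosphate and are regulated by calcium. SLC25A24 had 75.0, 64.4 and 65.7 TPM, SLC25A23 had 50.2, 49.0 and 51.9 TPM, and SLC25A25 had 40.5, 36.9 and 39.8 TPM. These 3 genes did not overlap with each other over the libraries. SLC25A41, the fourth of the group, had at most 0.824 TPM, and its row and that of SLC25A23 share 187 bp on the minus strand of chromosome 19.

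Of the carriers of organic acids, 3 of 4 had at least 10 TPM in every library. SLC25A1, which exports the citrate used for fatty acid and sterol synthesis, had 262, 266 and 249 TPM, a mean of 259 ± 9.0 TPM (SD, n = 3). SLC25A11, the malate/oxoglutarate carrier of the malate-aspartate shuttle, had 77.6, 78.7 and 75.4 TPM. SLC25A10, which carries malate, succinate and phosphate, had 62.3, 61.8 and 60.5 TPM. SLC25A21, which carries oxoadipate and oxoglutarate, was lower than all of these at 1.45, 1.32 and 1.47 TPM.

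The aspartate/glutamate carriers are the other arm of the malate-aspartate shuttle. SLC25A13, known as citrin and as the main isoform of the liver, had 39.8, 34.6 and 38.1 TPM. SLC25A12, known from brain and muscle, had 11.96, 11.5 and 10.5 TPM, and SLC25A13 was 3.32 ± 0.320 times as high (SD, n = 3). Of the glutamate carriers, SLC25A22 had 52.5, 49.7 and 51.1 TPM and SLC25A18 had 0.651, 0.924 and 0.634 TPM. The row of SLC25A18 shares 121 bp with ATP6V1E1, a gene of the opposite strand at 149 ± 0.313 TPM (SD, n = 3), and reads from the shared bases could fall to either gene.

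Basic amino acids are moved by 3 listed carriers. SLC25A29, a carrier of arginine and lysine, had 83.1, 88.6 and 76.3 TPM and was the sixth in the family. SLC25A15, the ornithine carrier of the urea cycle, had 15.3, 13.6 and 13.3 TPM. SLC25A2, a related ornithine carrier with an intronless gene, was listed at 0 in replicate 1 and had 0.0846 and 0.202 TPM in replicates 2 and 3. The coding regions of SLC25A15 and SLC25A2 were 87.6% identical, with 33 bases in their longest shared run.

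Glutathione, glycine and branched-chain amino acids each have a carrier in this family. SLC25A39, needed for glutathione import, had 247, 249.8 and 249.5 TPM, with the lowest coefficient of variation among the 34 carriers averaging 10 TPM or more, at 0.664%. Its paralog SLC25A40 had 7.60, 6.91 and 6.55 TPM, and SLC25A39 was 35.6 ± 2.85 times as high (SD, n = 3). SLC25A38, a glycine carrier required for heme synthesis, had 31.8, 30.0 and 32.5 TPM. SLC25A44, a carrier of branched-chain amino acids, had a mean of 25.3 ± 0.712 TPM (SD, n = 3).

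Of the 8 carriers of cofactors, 5 had at least 10 TPM in every library. SLC25A32, which carries folate or flavin, led them with 53.5, 46.2 and 50.6 TPM. The peroxisomal carrier SLC25A17 had a mean of 32.2 ± 2.75 TPM and the S-adenosylmethionine carrier SLC25A26 had 17.4 ± 0.476 TPM (SD, n = 3). SLC25A16, linked to coenzyme A, had 30.9, 31.6 and 24.5 TPM, and its coefficient of variation of 13.4% was the highest among the 34 carriers. SLC25A42, which carries coenzyme A, had 3.61, 3.16 and 3.18 TPM. SLC25A51, the carrier of NAD+, had 8.26, 7.68 and 5.89 TPM, with replicate 3 below the others. Its copy SLC25A52 was listed at 0 in replicates 1 and 2 and had 0.142 TPM in replicate 3, and in view of the run of 169 bases shown above, reads of both genes cannot be fully told apart.

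Pyrimidine nucleotides, which are needed for mitochondrial DNA and RNA, are carried by SLC25A33 and SLC25A36. SLC25A36 had 29.5, 25.2 and 25.0 TPM and SLC25A33 had 14.5, 13.4 and 13.1 TPM. The mitoferrins import iron for heme and iron-sulfur clusters. SLC25A37, known from red cell precursors, had 34.5, 33.6 and 33.8 TPM, and SLC25A28, known from most other tissues, had 23.7, 25.7 and 24.6 TPM. SLC25A20, which brings acylcarnitines into the matrix for fatty acid oxidation, had 26.7, 27.5 and 28.1 TPM.

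Of the 3 relatives of the uncoupling proteins, 2 had at least 10 TPM in every library. SLC25A14 had 14.4, 13.4 and 13.4 TPM, SLC25A30 had a mean of 13.7 ± 1.64 TPM and SLC25A27 had 1.86 ± 0.239 TPM (SD, n = 3). Of the uncoupling proteins proper, UCP2 had 131, 125 and 129 TPM, UCP3 had a mean of 1.93 ± 0.236 TPM (SD, n = 3), and UCP1, known from brown fat, was listed at 0. MTCH2, a member of the family in the outer membrane, was the highest of the 5 genes with other symbols at 157 ± 5.84 TPM (SD, n = 3).

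Of the 8 carriers placed in no other group, 4 had at least 10 TPM in every library. SLC25A46, a protein of the outer membrane, led them with 25.0, 22.5 and 22.5 TPM, and SLC25A43, SLC25A45 and SLC25A35 had means of 17.0, 14.5 and 12.6 TPM. SLC25A34 had 1.07, 0.840 and 1.01 TPM, on both sides of 1 TPM. SLC25A53 had at most 0.158 TPM and SLC25A48 was listed at 0 in all 3 libraries. SLC25A47, known as a carrier of the liver, was listed at 0 in replicates 1 and 3 and had 0.0930 TPM in replicate 2. Its row lies 16789 bp from that of SLC25A29 on chromosome 14, on the other strand, with 1 row between them.

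Markers of the labelled cell type were also low. All 12 listed hepatocyte markers were below 1 TPM in every library, and for 9 of the 12, ALB included, the tables list 0 throughout. TTR, the highest, had 0.0417, 0.203 and 0.108 TPM. The part of what lies behind these low markers in the levels of the carriers was not tested.

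**Figure D3:**
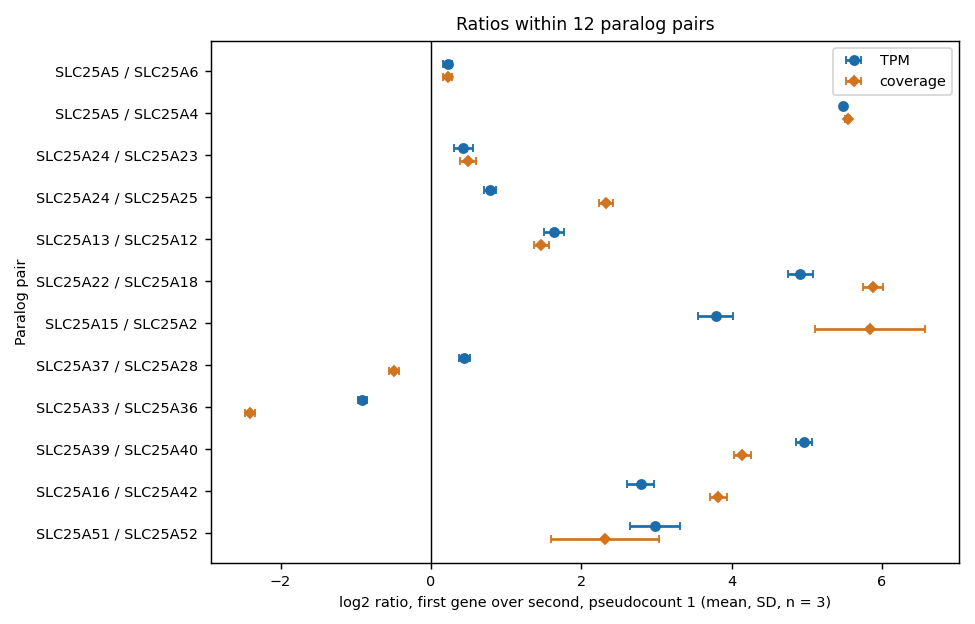
Log2 ratio of the first to the second gene in 12 paralog pairs, by TPM and by coverage, as the mean and SD of 3 libraries with a pseudocount of 1. SLC25A37 to SLC25A28 lies on opposite sides of 0 by the 2 measures, at 0.45 by TPM and -0.49 by coverage, and the other 11 pairs keep their side.

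The ratios within 12 paralog pairs were tested within libraries, on the log2(TPM + 1) scale. The ratio of SLC25A5 was 0.22 ± 0.06 to SLC25A6 and 5.48 ± 0.03 to SLC25A4, and that of SLC25A24 was 0.43 ± 0.12 to SLC25A23 and 0.79 ± 0.08 to SLC25A25 (SD, n = 3). It was 1.64 ± 0.13 for SLC25A13 to SLC25A12, 4.91 ± 0.17 for SLC25A22 to SLC25A18 and 3.79 ± 0.23 for SLC25A15 to SLC25A2. It was 0.45 ± 0.08 for SLC25A37 to SLC25A28, -0.91 ± 0.06 for SLC25A33 to SLC25A36 and 4.96 ± 0.10 for SLC25A39 to SLC25A40. It was 2.79 ± 0.18 for SLC25A16 to SLC25A42 and 2.97 ± 0.33 for SLC25A51 to SLC25A52. The size of some ratios followed the pseudocount or the measure. With a pseudocount of 0.1, SLC25A15 to SLC25A2 was 6.32, SLC25A51 to SLC25A52 was 5.77 and SLC25A22 to SLC25A18 was 5.95. By coverage, SLC25A24 to SLC25A25 was 2.33, SLC25A33 to SLC25A36 was -2.41 and SLC25A16 to SLC25A42 was 3.82. Each ratio had its direction in 3 of 3 libraries. An exact permutation test that flips the signs of the 3 ratios, two-sided, gave p = 0.25 for every pair, and 0.25 after Benjamini-Hochberg adjustment over the 12 pairs, and no smaller p can be reached with 3 libraries.

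The order of the carriers was clear at the top and blurred in the middle. Of the 47 steps between neighbours in the order of mean TPM, 18 had no overlap between the values of the 3 libraries. Of these 18, 13 lay below a carrier with a mean of at least 10 TPM. The count depends on how closely the levels are spaced, and no such count was made over other genes. SLC25A5, SLC25A6 and SLC25A3 were each apart from the next gene. SLC25A1 and SLC25A39 overlapped and stood above SLC25A29 and SLC25A11, which overlapped in turn. SLC25A24 and SLC25A10 followed, each apart from its neighbours. From SLC25A37 to SLC25A46, at 34.0 and 23.3 TPM, every gene overlapped with the next. The steps between neighbours in this stretch are thus not larger than the spread between libraries. Genes farther apart in it could be separate, as SLC25A37 had at least 33.6 TPM and SLC25A46 at most 25.0 TPM. Neighbours also overlapped from SLC25A4 to SLC25A43 and from SLC25A45 to SLC25A35, though SLC25A45 itself lay above SLC25A35 in all values.

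The carriers varied little between libraries. The median range of log2(TPM + 1) over the 3 libraries was 0.11 for the 34 carriers averaging 10 TPM or more and 0.13 for all 8419 genes at that level, and the median coefficients of variation were 4.09% and 4.88%. The largest range among these carriers was 0.35, for SLC25A16. Replicate 1 held the highest value of 18 of the 34 carriers, or 52.9%, against 62.5% of all genes at that level. Replicate 2 held the lowest value of 17 carriers, or 50%, against 31.2% of all genes.

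**Figure D4:**
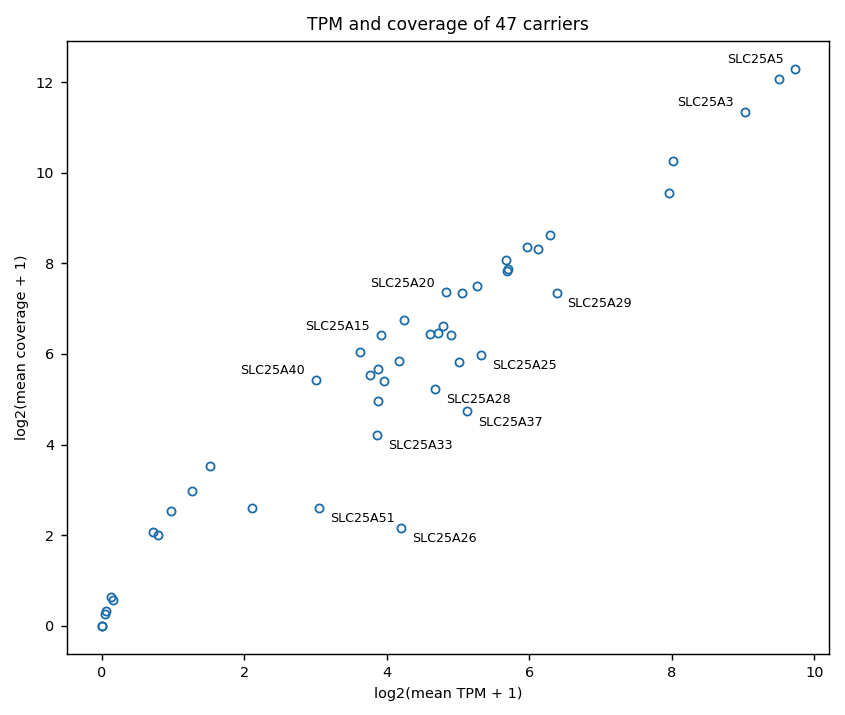
Mean coverage against mean TPM of 47 carriers, each on a log2 scale with a pseudocount of 1. Genes along the upper edge, such as SLC25A5, SLC25A20, SLC25A15 and SLC25A40, have the most coverage for their TPM, and SLC25A26 lies farthest below it.

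The deposited coverage, the mean read depth over a gene, gave another order for some carriers. FPKM is TPM before it is scaled to a fixed total. Coverage divided by FPKM reached at most 13.3, 12.8 and 11.5 in replicates 1, 2 and 3, over genes above 1 FPKM. Of the 37 carriers above 1 FPKM in every library, 6 were at this ratio within 0.001 of it. These were SLC25A5, SLC25A6, SLC25A20, SLC25A4, SLC25A15 and SLC25A40. All 6 are among the 10 of the 37 with 1 curated RefSeq transcript, and 0 of the 27 with more transcripts were at the ratio. Of those 10, SLC25A23, SLC25A43, SLC25A28 and SLC25A33 were lower, at 0.750, 0.555, 0.247 and 0.215 of the ratio. In all, 13 of the 37 carriers were below 0.5 of the ratio. SLC25A26, with 24 curated transcripts, was at 0.0336 of the ratio, and its rank in the family was 26 by TPM and 40 by coverage. SLC25A37 was at 0.126, with ranks of 15 and 33. SLC25A25 was at 0.268, with ranks of 13 and 24, and SLC25A29 was at 0.328, with ranks of 6 and 14. The 5 highest carriers had the same order by both measures. The part of the transcript number in these ranks was not tested.

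RNA of the genes for the proteins that insert carriers was found as well. All 16 listed genes of the carrier import route had at least 10 TPM in every library, with a median of 68.3 ± 3.41 TPM (SD, n = 3). TIMM22, the channel of the inner membrane, had 20.8, 22.0 and 22.0 TPM. The list ran from TIMM29, a partner of TIMM22, at 15.8 ± 1.01 TPM to TOMM40, the channel of the outer membrane, at 329 ± 5.93 TPM (SD, n = 3). Of 11 other mitochondrial transport genes, all had at least 1 TPM and 9 had at least 10 TPM in every library. They ran from SFXN2, a sideroflexin, at 8.31 ± 1.23 TPM to VDAC1, the main pore of the outer membrane, at 520.5 ± 11.8 TPM (SD, n = 3).

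The rows of 25 carriers overlap another row, and 13 of them overlap a gene with a mean of at least 1 TPM. The strand setting of the quantification is not given in the sources used here, so overlapping reads could have been given to either gene. SLC25A35, at 12.6 ± 0.634 TPM, shares 1596 bp or 20.1% of its span with RANGRF of the opposite strand, at 13.1 ± 1.31 TPM (SD, n = 3). SLC25A29 shares 1049 bp with the gene YY1, at 90.7 ± 6.09 TPM (SD, n = 3), and SLC25A11 shares 244 bp with RNF167, at 80.7 ± 3.17 TPM (SD, n = 3). SLC25A5 shares 677 bp with its antisense gene SLC25A5-AS1, at 2.33 ± 0.451 TPM (SD, n = 3).

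The promoters of 40 carriers were found in the RefSeq table of GRCh38.p14, as the 250 bases before the start that this table lists, 1 for each gene. For 34 of them the listed start is the outer edge of the RefSeq span of the gene. For the other 6 it lies inside that span, by 862 bp in SLC25A46, 1055 bp in SLC25A45, 30275 bp in SLC25A25, 38847 bp in SLC25A28, 87132 bp in SLC25A26 and 255491 bp in SLC25A48, so these windows precede an inner start. The RefSeq span equals the deposited row for 15 of the 48 carriers and overlaps it for all. The 8 remaining carriers had no match. The last 100 bases before the start are shown for the 2 highest carriers and for SLC25A31 and SLC25A47, which were at or near 0. Capitals mark the motifs named below. The stretches are chrX:119468344-119468443 for SLC25A5, chrX:1392114-1392213 for SLC25A6, chr4:127730300-127730399 for SLC25A31 and chr14:100323239-100323338 for SLC25A47, on the plus strand except for SLC25A6, which is on the minus strand.
SLC25A5: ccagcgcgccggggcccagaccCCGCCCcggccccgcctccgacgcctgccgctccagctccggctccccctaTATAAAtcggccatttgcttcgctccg
SLC25A6: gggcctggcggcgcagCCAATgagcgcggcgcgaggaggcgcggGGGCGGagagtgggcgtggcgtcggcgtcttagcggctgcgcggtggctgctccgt
SLC25A31: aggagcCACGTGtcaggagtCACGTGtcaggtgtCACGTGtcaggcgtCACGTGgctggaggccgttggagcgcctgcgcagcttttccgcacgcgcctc
SLC25A47: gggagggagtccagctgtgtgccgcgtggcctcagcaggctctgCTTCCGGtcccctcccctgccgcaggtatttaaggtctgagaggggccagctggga

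The motifs were searched on both strands in the 250 bases, and a promoter counted once for each motif that it holds. The GC box GGGCGG was found in 28 of 40 carrier promoters, or 70%, against 42.6% of all 35116 promoters and 53.7% of 22199 protein-coding ones. The CCAAT box CCAAT was found in 18, or 45%, against 32.0% of all promoters. The ETS motif CCGGAAG was found in 8, or 20%, against 8.52%. The TATA box TATAAA was found in 3, those of SLC25A5, SLC25A18 and, before its inner start, SLC25A26, or 7.5%, against 10.7%. The core of the NRF1 motif, CGCATGCG, was found in 0 carrier promoters, against 1.73%, and the motif AAGATGGC of the factor YY1 in 1, that of SLC25A44, or 2.5%, against 1.36%. The E box CACGTG, added after the sequence of SLC25A31 had been seen, was found in 7, or 17.5%, against 6.34%. SLC25A31 holds 4 copies of it, and 4 or more copies were found in 5 of all promoters, or 0.0142%. Over the 34 promoters at the outer edge alone, the GC box was in 25, the CCAAT box in 16, the ETS motif in 7, the TATA box in 2 and the E box in 6. These matches describe the letters and not binding.

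**Figure D5:**
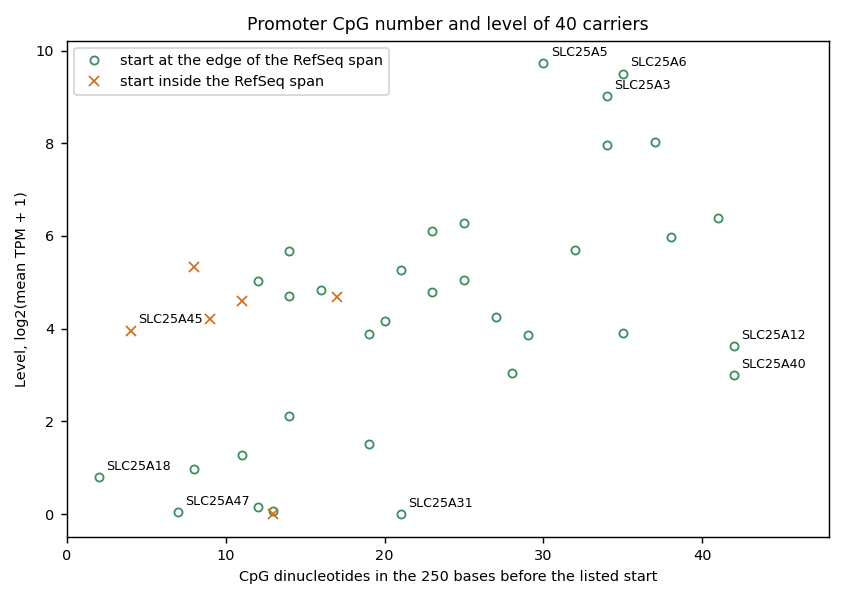
Level of 40 carriers, as log2(mean TPM + 1), against the number of CpG dinucleotides in the 250 bases before the listed start, with circles for 34 starts at the edge of the RefSeq span and crosses for 6 inside it. The 5 highest carriers have 30 to 37 CpGs, while SLC25A12 has 42 at 11.3 TPM and SLC25A45, a cross, has 4 at 14.5 TPM.

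The number of CpG dinucleotides in these 250 bases had a median of 24 in the 28 promoters of carriers with a mean of at least 10 TPM, 19 in the 5 between 1 and 10 TPM, and 12 in the 7 with a mean below 1 TPM. The median was 16 over protein-coding promoters. Without the 6 windows before an inner start, the medians were 27 in 23 promoters, 19 in 5 and 10 in 6. These 23 ran from 12 CpGs in SLC25A38 to 42 in SLC25A12, and these 6 from 2 in SLC25A18 to 21 in SLC25A31, so the classes overlap. GC content had medians of 68.6%, 65.2% and 58.0% in the 3 classes of all 40 promoters.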

How the data were processed

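RNA-seq of 3 libraries labelled HepG2 was analysed. Reads of 150 bp in pairs were checked by the authors with FastQC 0.11.8, trimmed with Trim Galore 0.6.2 and mapped to GRCh38 with STAR 2.6.1a. The submitters' processing notes also name StringTie, and the annotation and strand setting are not given in the sources used here. The authors deposited TPM values with a common total, FPKM values proportional to TPM within a library, and coverage, a mean depth that is not scaled for library size. No depth is known, and the SD over 3 libraries gives the spread between them, which may be technical.

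Rows with the same name and coordinates in all tables (43389) were joined, and those on main chromosomes were used. TPM was used as deposited, with a pseudocount of 1 on the log2 scale. Paralogs were compared by an exact permutation of signs, two-sided, with Benjamini-Hochberg adjustment. Genes named were the 10 highest carriers, both members of 12 pairs, the leading gene of each group and all carriers below 1 TPM, and the highest and lowest gene of each list. The remaining carriers, UCP2, UCP3, TIMM22 and the overlapping genes were named after their values were seen. Members, pairs, groups and lists were chosen with earlier results of these data known. Coding regions came from GENCODE v44 and were aligned globally in Biopython 1.88. Promoters came from RefSeq. The calculations were tested on simulated data and used Python 3.11.15, numpy 2.4.6, pandas 2.3.3 and matplotlib 3.10.9. Alternatives were other minimums, pseudocounts and scalings, FPKM, coverage and leaving out each replicate. The level of 1 carrier is not reported here, though it is counted in the totals.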

Additional observations from a re-analysis of the deposited data

How the results depend on the processing

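No paired analysis was possible because a single group was sequenced. Scaling without mitochondrially encoded genes, which took 19.9%, 20.2% and 20.2% of TPM in replicates 1, 2 and 3, raised the median of the carriers from 20.5 to 25.6 TPM and their sum from 3567 to 4464 TPM. Only the carriers with a mean of at least 1 TPM gave a median of 27.2 TPM, since low genes are left out. The log2 ratio of SLC25A37 to SLC25A28 was 0.45 from TPM values and turned to -0.49 from coverage, and the cause was not tested. No other ratio changed its direction with a pseudocount of 0.1, FPKM, coverage or any replicate left out, but sizes did, from 3.79 to 6.32 for SLC25A15 to SLC25A2 and from 2.97 to 5.77 for SLC25A51 to SLC25A52 with that pseudocount, and from 0.79 to 2.33 for SLC25A24 to SLC25A25 and from -0.91 to -2.41 for SLC25A33 to SLC25A36 by coverage. The median range between libraries was 0.11, against 0.13 with a minimum mean of 1 TPM and 0.044 to 0.076 with a replicate left out, where fewer libraries can only lower a range. Among the 10 highest carriers by TPM, 9 were also among the 10 highest by coverage, a comparison chosen after the data had been seen, as was leaving out the 6 promoters before an inner start. The unknown depth limits every carrier listed at 0.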
